A study of Mus musculus with 8 samples.

Results

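The genes described here carry the names of proteins of the cytosolic ribosome. They are the lines of the deposited count table whose gene name follows the pattern Rpl or Rps, a number and at most 1 letter out of a, x, y and l, together with Rplp0, Rplp1, Rplp2 and Rpsa. This rule looks only at names and uses no measured value. It found 81 genes among the 23282 lines of the table: 46 of the large subunit, 32 of the small subunit including Rpsa, and 3 of the P-stalk. The 8 sequenced libraries came from intestinal tissue of C57BL/6 wild-type animals, with 2 libraries under each of 4 group labels. ExDSS mice received 1 mg of bovine colostrum exosomes by gavage each day for 3 weeks, followed by 6 days on water with 3% DSS (dextran sodium sulfate). Ex mice received the exosomes without DSS, PC mice received buffer and then DSS, and NC mice received buffer without DSS. Exosomes are small membrane vesicles that cells secrete, here into milk, and DSS, a polymer toxic to the epithelium of the gut, is a standard agent for colitis in rodents. Which stretch of the gut was taken is not stated in the labels. They also do not tell whether both libraries of a group stem from different animals, so the p-values describe the spread between libraries only, which may be technical.

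Each cytosolic ribosome holds 1 copy of nearly every one of these proteins, the acidic stalk proteins being the exception, and cells coordinate their production with that of ribosomal RNA. Many of the mRNAs begin with a terminal oligopyrimidine tract, an uninterrupted run of C and U bases at the cap through which growth signals control their translation. In the intestine, the dividing cells of the crypts are known for high ribosome production. Some members have duties outside the ribosome: RPL5 and RPL11 form the 5S ribonucleoprotein particle and can bind MDM2, the ubiquitin ligase that limits p53.

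Total counts were 9652586 and 10812469 in ExDSS 1 and ExDSS 2, 8813622 and 1163147 in Ex 1 and Ex 2, 10158929 and 10412457 in PC 1 and PC 2, and 11405200 and 12308537 in NC 1 and NC 2. Library Ex 2 stood apart: 53.5% of its counts fell on Rn45s, the ribosomal RNA precursor, against between 0.407% and 13.1% in the other 7 libraries. Genes of pancreatic acinar cells (15 of 15 detected) held 20.5% of the counts of ExDSS 1 and 9.11% of those of NC 2, and at most 0.0617% of any other library. The labels of the control groups went against a neutrophil marker list of 8 genes. Its summed level was 3110 and 2018 CPM (counts scaled to a common library size, TMM-normalised) in the ExDSS libraries and 2455 and 2305 CPM in the NC libraries, against 8.99 and 10.4 CPM in the Ex libraries and 10.04 and 9.42 CPM in the PC libraries. The list had 8 of 8 genes detected in both NC libraries and 8 and 6 in the PC libraries, and Csf3r was at 0 in PC 2 and in all ExDSS and Ex libraries. Macrophage markers (5 genes) summed to 2209 and 3027 CPM in the ExDSS libraries, 195 and 10.4 CPM in the Ex libraries, 150 and 210 CPM in the PC libraries, and 753 and 2369 CPM in the NC libraries. Groups are named below as labelled, and every comparison that involves NC or PC rests on those labels. Were the labels of NC and PC exchanged, ExDSS minus PC would set both treatments against neither, not exosomes with DSS against DSS alone; whether they were was not tested. Epithelial markers (9 genes) summed to between 3212 and 6060 CPM in 7 libraries and to 41.6 CPM in Ex 2. Single genes did not all follow this sum. Lgals4 was at 0 in both ExDSS libraries and NC 2, against 13.5 to 24.1 CPM in Ex 1, PC and NC 1. Cdx1 had 8.2, 5.1 and 10.2 CPM in ExDSS 1, ExDSS 2 and NC 2, against 34.0 to 116 CPM in Ex 1, PC and NC 1. Krt18 ran the other way, with 655, 471 and 704 CPM against 213 to 244 CPM.

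The starts of the genes were read first, because the oligopyrimidine tract is the feature these mRNAs are best known for. RefSeq (build GRCm38.p6) gave a promoter entry for 60 of the 81 members. A run of at least 6 C or T bases on the gene's strand, lying within the 10 bases before the annotated start and the 20 bases after it, was found in 34 of these 60 genes (56.7%), against 7730 of all 27025 entries (28.6%). The motif CCGGAAG, the core bound by ETS factors, occurred on either strand of the window from 250 bases before to 50 bases after the start in 24 members (40.0%), against 9.12% of all entries. AAGATGG, a core of YY1 sites, was found in 8 members (13.3%), against 6.48%. TATAAA was found in 5 members (8.33%), against 14.2%. CCGGAAG and AAGATGG can share their AAG, so one stretch can hold both, and a match shows neither binding nor control. Below are windows of 30 bases, 15 before the annotated start and 15 from it on, for 5 members whose levels varied widely between libraries and for Rpl10l, which differed most in level. Each is on the gene's strand, and capitals mark the longest run of C and T that lies no more than 10 bases before the start, the first one where runs tie.
Rps27: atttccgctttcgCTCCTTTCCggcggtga
Rpl28: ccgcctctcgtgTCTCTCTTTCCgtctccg
Rpl18: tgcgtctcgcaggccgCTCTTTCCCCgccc
Rpl26: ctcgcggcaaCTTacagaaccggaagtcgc
Rpl5: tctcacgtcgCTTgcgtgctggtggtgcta
Rpl10l: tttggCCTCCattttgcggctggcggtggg
The windows lie at chr3:90213634-90213663 on the minus strand for Rps27, at chr7:4792950-4792979 on the plus strand for Rpl28, and at chr7:45718056-45718085 on the plus strand for Rpl18. That of Rpl26 is chr11:68901551-68901580 and that of Rpl5 chr5:107900513-107900542, both on the plus strand, and that of Rpl10l is chr12:66284387-66284416 on the minus strand. These runs were 9, 11 and 10 bases in Rps27, Rpl28 and Rpl18, and 3, 3 and 5 bases in Rpl26, Rpl5 and Rpl10l. Rps27, Rpl28 and Rpl26 were all higher in both ExDSS libraries and in NC 2 than in any other library, with Rps27 given below. Rpl28 had 2020 and 734 CPM in ExDSS and 2088 CPM in NC 2, against at most 487 CPM elsewhere. Rpl26 had 6473 and 7914 CPM in ExDSS and 13420 CPM in NC 2, against at most 3106 CPM elsewhere. A long run at the annotated start and its absence thus both occurred among genes with that pattern.

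Counts on the 81 genes made up 7.30% and 10.98% of ExDSS 1 and ExDSS 2, 10.7% and 2.42% of Ex 1 and Ex 2, 8.04% and 9.79% of PC 1 and PC 2, and 8.65% and 11.99% of NC 1 and NC 2. The exact Clopper-Pearson 95% interval was 2.40 to 2.45% in Ex 2, the shallowest library, and narrower relative to its value in the others. Group means were 9.14 ± 2.60% in ExDSS, 6.56 ± 5.85% in Ex, 8.92 ± 1.24% in PC and 10.3 ± 2.36% in NC (SD, n = 2 each). The ranges of the groups overlapped for every pair of groups. No test is given for this share, since the genes are a chosen list. In bulk tissue, fewer cells of a type and less RNA per cell cannot be told apart, and the part of Rn45s and of the acinar genes in these shares was not tested beyond a change of denominator. With Rn45s left out of the total, Ex 2 had 5.21% and Ex 1 12.3%. With the acinar genes left out as well, ExDSS 1 had 9.29% and NC 2 13.3%.

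The 46 large-subunit genes together held more counts than the 32 small-subunit genes in each of the 8 libraries. The shares that follow are sums over genes and were not divided by the number of genes. Large-subunit genes held 3.74% and 5.40% of all counts in the ExDSS libraries, 5.40% and 1.33% in the Ex libraries, 4.05% and 4.94% in the PC libraries, and 4.19% and 5.99% in the NC libraries. Small-subunit genes held 3.12% and 4.74% in ExDSS, 4.38% and 0.957% in Ex, 3.21% and 3.93% in PC, and 3.59% and 5.2% in NC. The 3 stalk genes held between 0.786% and 0.927% in 6 libraries, 0.448% in ExDSS 1 and 0.133% in Ex 2.

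**Figure D1:**
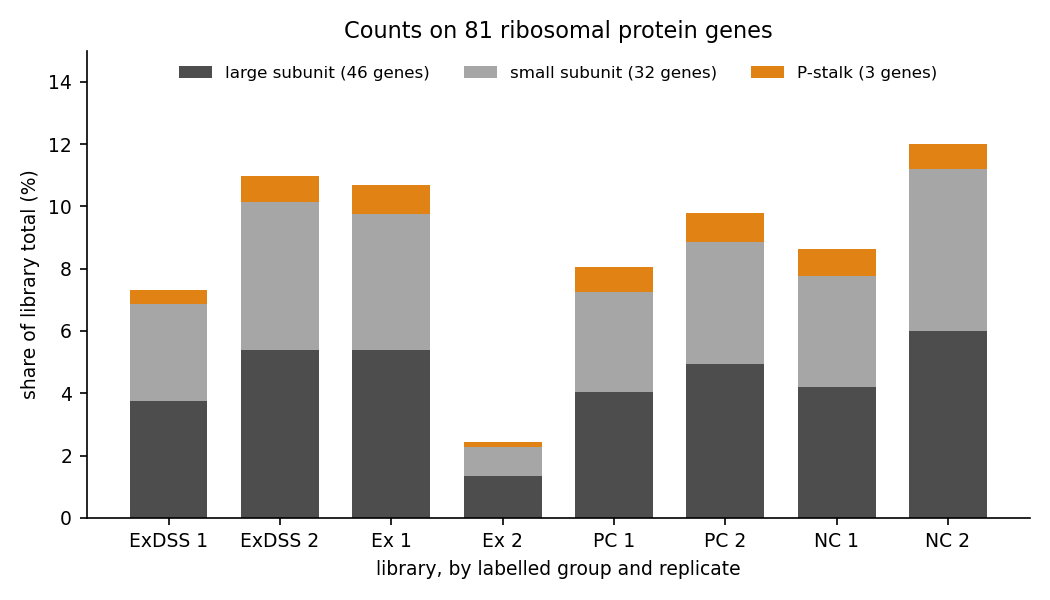
Share of each library's total count (y axis, %) on the 81 ribosomal protein genes, stacked by large subunit, small subunit and P-stalk, for the 8 libraries by labelled group and replicate (x axis); bars have no error since each is 1 library. Ex 2 holds 2.42% while the other 7 libraries lie between 7.30% and 11.99%.

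Within that sum, single genes did not keep step. Of the 81 members, 79 passed the filter on low counts (Rpl3l and Rpl39l did not). Leaving out Ex 2, the normalised level of the median member varied 3.43-fold over the other 7 libraries. The range was under 2-fold for 13 members and over 4-fold for 31. Rps13, a small-subunit protein, varied least, with 123 and 124 CPM in ExDSS, 168 CPM in Ex 1, 119 and 149 CPM in PC, and 120 and 151 CPM in NC. Rplp0, the stalk's scaffold, varied 1.46-fold. Rpl10l and Rps4l had 0 counts in 1 or more of the 7 libraries and so no finite range. Next to them, Rpl27 of the large subunit varied 21.5-fold: it had 13.0 and 101 CPM in ExDSS 1 and ExDSS 2, 280 CPM in Ex 1, 143 and 196 CPM in the PC libraries, and 152 and 51.0 CPM in NC 1 and NC 2. The highest of the 7 libraries was NC 2 for 39 members and Ex 1 for 30. The lowest was PC 1 for 36 members and ExDSS 1 for 27.

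Library Ex 2 had 28190 counts on these genes, with 14 members under 10 counts. It was the lowest of all 8 libraries for 48 of the 79 tested members. Its levels were not uniformly low: 30 members had less than 0.1 of their Ex 1 level, while 12 stood above it. Rps27, a zinc-finger protein of the small subunit, had 2.97 CPM (2 counts) in Ex 2 and 442 CPM in Ex 1. Rps27rt, a line of the table that lies on the same strand, covers 981 of its bases and may share its reads, had 1126 CPM in Ex 2 and 804 CPM in Ex 1. Rpl30 had 1738 CPM in Ex 2 and 470 CPM in Ex 1, and Rpl27a had 3869 CPM in Ex 2 and 1837 CPM in Ex 1. Every Ex mean below therefore joins libraries that differ by large factors in opposite directions.

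**Figure D2:**
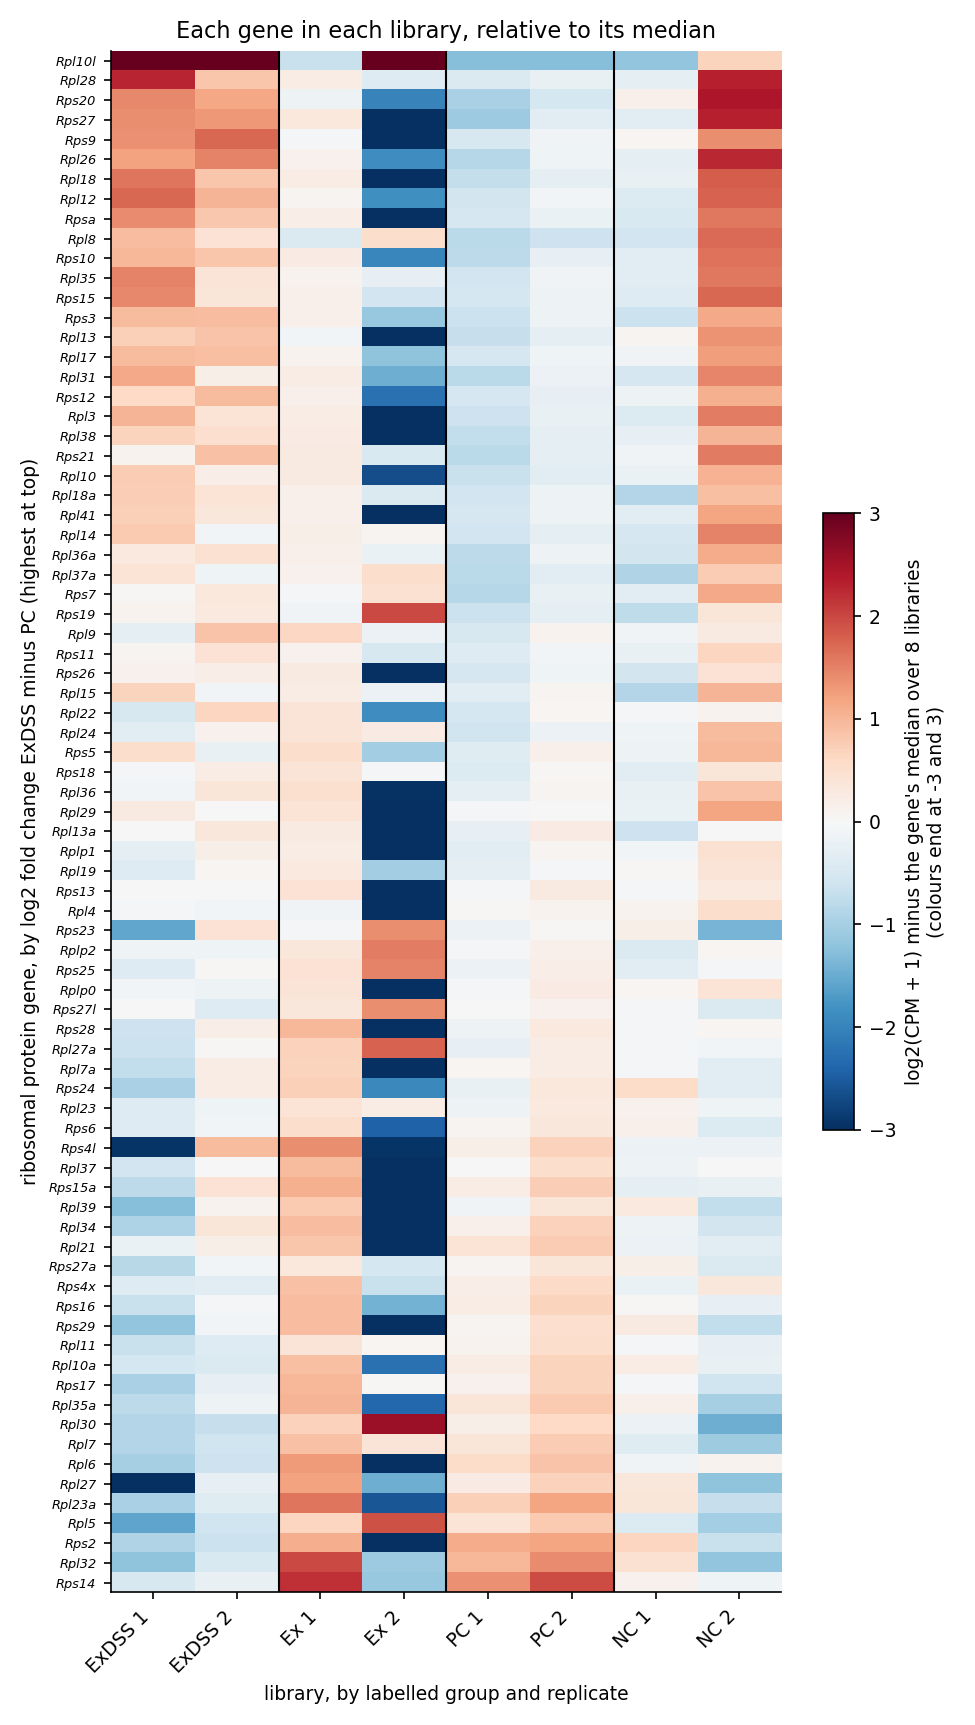
Level of each of 78 tested ribosomal protein genes (rows, ordered by the log2 fold change of ExDSS minus PC, highest at the top) in each of 8 libraries (columns), as log2(CPM + 1) minus the gene's median over the libraries; colours end at -3 and 3. NC 2 and the ExDSS libraries are mostly red in the upper rows and blue in the lowest ones, PC 1, PC 2 and Ex 1 are near their median or below it in the upper rows and red in the lowest ones, and Ex 2 mixes dark blue and red throughout.

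The ratio between a pair of libraries, taken over the 79 members, measured how far the balance among them differed. The SD of this log2 ratio was 0.148 between PC 1 and PC 2, 0.870 between the ExDSS libraries, 1.16 between the NC libraries and 2.74 between the Ex libraries. Across groups it was 0.196 between Ex 1 and PC 2 and 0.272 between Ex 1 and PC 1, both below the value within 3 of the 4 groups. ExDSS 1 and NC 2, the 2 libraries with acinar genes, gave 0.737, and 0.387 when measured by the interquartile range, which a few genes such as Rpl10l do not move. For 10319 other genes with a mean of at least 5 CPM the SD was larger for each of these pairs. It was 0.377 for the PC libraries, 2.39 for ExDSS, 1.69 for NC and 2.86 for Ex. Across groups it was 0.393 for Ex 1 and PC 2, 0.544 for Ex 1 and PC 1, and 2.12 for ExDSS 1 and NC 2. These genes were not matched to the members in level. In PC 1 the median member was at 478 CPM and the median tested gene at 11.35 CPM.

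Exosome pretreatment before DSS was compared with DSS alone. edgeR's quasi-likelihood test called 0 of the 79 members between ExDSS and PC at a Benjamini-Hochberg adjusted p under 0.05, and 0 of all 14567 genes tested (0.0%). At an unadjusted p under 0.05 it listed 1 member (Rpl10l, higher) and 2763 genes (19.0%; 2.84% higher and 16.1% lower), while DESeq2 and limma-voom each called 1 member (1.27%), again Rpl10l, against 10.2% and 7.96% of all genes. The log2 fold change was above 0 in 43 of 79 members, against 40.6% of all genes. Its median was 0.16 over the members and -0.51 over all genes. Scaling by total counts alone turned the members' median to -0.27 and set that of all genes at -0.91, so the members' median was the higher under both. Members differed in both directions: in 32 of 79 both ExDSS libraries lay above both PC libraries, against 18.9% of all genes, and in 22 both lay below, against 45.4% of all genes.

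The members with the largest differences between ExDSS and PC were, on the high side, Rpl10l (described with its parent gene below), Rpl28, Rps20 and Rps27. Rps20, a protein of the small subunit's head, had 9771 and 7999 CPM in ExDSS, against 1810 and 2469 CPM in PC (log2 fold change 2.06, SE 1.66, edgeR adjusted p = 0.61). Rps27 had 936 and 875 CPM in ExDSS, against 166 and 285 CPM in PC (2.01, SE 1.65, edgeR adjusted p = 0.62). Rpl28 had 2020 and 734 CPM in ExDSS, against 308 and 354 CPM in PC (2.06, SE 1.47, edgeR adjusted p = 0.54). The groups did not overlap for any of these genes, yet each of them stayed short of the threshold. The common dispersion, estimated over all 8 libraries, was 1.173. Rps27rt, which lies wholly inside Rps27, had 970 and 1005 CPM in ExDSS, against 370 and 580 CPM in PC (1.06, SE 1.41, edgeR adjusted p = 0.81), so the size of the Rps27 difference depends on how reads were divided between them. Rpl28 was less even than Rps20 and Rps27, with a log2 fold change of 1.13 without ExDSS 1 and 2.60 without ExDSS 2.

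On the low side stood Rps14, Rpl32, Rps2 and Rpl5. Rps14, a platform protein whose human gene lies in the region lost in 5q- syndrome, had 822 and 988 CPM in ExDSS, against 2947 and 4479 CPM in PC (log2 fold change -2.04, SE 1.57, edgeR adjusted p = 0.59). Rpl32 had 253 and 422 CPM in ExDSS, against 1168 and 1564 CPM in PC (-2.02, SE 1.497, edgeR adjusted p = 0.56). The line of Rpl32 shares 42 bases with Cand2 on the opposite strand, which had 50527 counts in all beside 80143 on Rpl32. Rps2, which lines the mRNA entry channel, had 76.9 and 92.1 CPM in ExDSS, against 318 and 333 CPM in PC (-1.95, SE 1.41, edgeR adjusted p = 0.55). Rpl5 had 298 and 590 CPM in ExDSS, against 1187 and 1542 CPM in PC, and its line shares 964 bases with Fam69a on the opposite strand. Its partner in the 5S particle, Rpl11, had 130 and 157 CPM in ExDSS, against 222 and 296 CPM in PC. These groups did not overlap either, with both ExDSS libraries the lower pair in each case.

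With ExDSS 1, Ex 2 and NC 2 all left out, a choice made after seeing the data, edgeR called 37 members between ExDSS 2 and the PC pair, 24 higher and 13 lower. That is 46.2% of the members tested, against 70.5% of all genes (10719). That fit rests on the spread of the PC pair alone (SD 0.148 over members, the smallest of the 4 groups) and assumes that the lone ExDSS, Ex and NC libraries vary as little. Rpl28 then had a log2 fold change of 1.11, Rps20 of 1.87, Rps27 of 1.92, Rps14 of -1.94 and Rpl32 of -1.73.

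DSS was then compared with no DSS among mice given exosomes. Between ExDSS and Ex, edgeR called 0 of 79 members and 0 of all genes (0.0%). At an unadjusted p under 0.05 it listed 0 members and 2881 genes (19.8%; 3.55% higher and 16.2% lower), DESeq2 called 1 member (Rpl30, lower; 1.27%) against 13.8% of all genes, and limma-voom 0 against 3.47%. The log2 fold change was above 0 in 44 of 79 members, against 45.4% of all genes. The members' median log2 fold change was 0.12, and -0.02 with RLE size factors, against -0.29 and -0.46 over all genes. In 22 members both ExDSS libraries lay above both Ex libraries and in 11 below, against 17.0% of all genes in each direction.

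Rps9, a small-subunit protein near the mRNA entry, had the largest positive difference, with 5431 and 6880 CPM in ExDSS, against 2000 and 108 CPM in Ex (log2 fold change 2.55, SE 1.69, edgeR adjusted p = 0.42). Rpl18 had 1398 and 821 CPM in ExDSS, against 541 and 7.43 CPM in Ex (2.01, SE 1.61, edgeR adjusted p = 0.53). In both genes the low value of Ex 2 carried much of the difference: without Ex 2 the log2 fold changes were 1.65 for Rps9 and 1.08 for Rpl18. Between them stood Rps20 at 2.11 and Rps27 at 2.02. Without Ex 2 these were 1.5 and 1.07, and Rps27 was at 8.44 without Ex 1, while Rps27rt was at 0.03 with all libraries.

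Rpl30, known to bind its own transcript in yeast, was the member with the largest negative difference: 159 and 181 CPM in ExDSS, against 470 and 1738 CPM in Ex (log2 fold change -2.70, SE 1.41, edgeR adjusted p = 0.29), and -1.43 without Ex 2. It overlaps the annotated RNA Gm12191 over 2273 bases, so its reads may be split or shared. Rpl5 had 298 and 590 CPM in ExDSS, against 1408 and 3402 CPM in Ex (-2.44, SE 1.48, edgeR adjusted p = 0.37), and -1.64 without Ex 2. Both genes were lower in each ExDSS library than in either Ex library. Rpl32 and Rps14 were not: their Ex libraries were at 2288 and 271 CPM and at 5234 and 520 CPM, and the log2 fold changes of -1.92 and -1.67 turned to 0.50 and 0.99 when Ex 1 was left out.

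Exosomes without DSS were compared with neither treatment. edgeR called 0 of 79 members and 0 of all genes (0.0%) between Ex and NC, with 1 member (Rpl10l, higher) and 774 genes (5.31%; 2.89% higher and 2.42% lower) at an unadjusted p under 0.05. DESeq2 and limma-voom called 0 members, against 2.31% and 0.0% of all genes. The log2 fold change was above 0 in 34 of 79 members, against 43.6% of all genes. The members' median log2 fold change was -0.31 and that of all genes -0.27, and both came to about 0 with RLE size factors (0.01 and -0.01). Both Ex libraries lay above both NC libraries in 10 members, against 11.1% of all genes, and below them in 4 (Rpl13, Rpl4, Rps20 and Rps9), against 22.9% of all genes.

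Values of Ex 2 or NC 2, high or low, weighed on these differences. Rps20 had 3231 and 889 CPM in Ex, against 3966 and 19130 CPM in NC (log2 fold change -2.49, SE 1.68, edgeR adjusted p = 0.999), and -0.96 without NC 2. Rps27 (log2 fold change -2.21) and Rpl26, a protein near the exit tunnel (-2.02, with 3106 and 772 CPM in Ex against 2336 and 13420 CPM in NC), had overlapping groups. Both were positive, at 0.65 and 0.42, when NC 2, Ex 2 and ExDSS 1 were left out together. Rpl13 had 1645 and 13.4 CPM in Ex, against 1853 and 4434 CPM in NC (-1.92), and its log2 fold change was -0.90 without Ex 2 and -8.0 without Ex 1. Among the higher genes, Rpl30 had 470 and 1738 CPM in Ex, against 258 and 104 CPM in NC (2.61, SE 1.41, edgeR adjusted p = 0.96), and 1.41 without Ex 2. Rpl5 had 1408 and 3402 CPM in Ex, against 682 and 441 CPM in NC (2.10, SE 1.46, edgeR adjusted p = 0.999), and 1.36 without Ex 2. Rps19, mutated in human Diamond-Blackfan anaemia, had 335 and 1426 CPM in Ex, against 212 and 459 CPM in NC (1.39), and its log2 fold change was 0.03 without Ex 2. Rpl30 and Rpl5 were higher in both Ex libraries than in either NC library, and Rps19 was not.

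Leaving out Ex 1 instead, so that Ex 2 alone stood for the group and was assumed to vary like the others, gave 28 members called (3 higher and 25 lower, with Rpl39l now passing the filter). That is 34.6% of the members tested, against 10.4% of all genes (1596). In that setting 30 members (37.0%) were called between ExDSS and Ex, against 12.2% of all genes (1883), and 26 (32.1%) in the interaction, against 10.8% (1663), with Rpl30 and Rpl5 among them each time. Leaving out Ex 2 gave 0 members in each of these. The counts of calls thus turned on a single library of 1163147 counts.

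DSS without exosomes was compared with neither treatment, with the groups as labelled. edgeR called 0 of 79 members and 0 of all genes (0.0%) between PC and NC, with 1 member (Rpl10l, lower) and 363 genes (2.49%; 0.686% higher and 1.81% lower) at an unadjusted p under 0.05. DESeq2 and limma-voom called 0 members, against 0.57% and 0.0137% of all genes. The log2 fold change was above 0 in 33 of 79 members, against 53.3% of all genes. The members' median log2 fold change was -0.26 and that of all genes 0.10, and 0.03 and 0.29 when libraries were scaled by total counts alone. Both PC libraries lay above both NC libraries in 18 members, against 31.0% of all genes, and below them in 15, against 23.6% of all genes.

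Rps20 had 1810 and 2469 CPM in PC, against 3966 and 19130 CPM in NC (log2 fold change -2.43, SE 1.68, edgeR adjusted p = 1.0). Rps27 had 166 and 285 CPM in PC, against 283 and 1785 CPM in NC (-2.20), and its groups overlapped. NC 2 was the high library in both genes, and without it the log2 fold changes were -0.89 and -0.32. The genes that were higher in PC depended less on NC 2. Rps14 had 2947 and 4479 CPM in PC, against 1249 and 1054 CPM in NC (1.69, SE 1.56, edgeR adjusted p = 1.0). Rpl5 had 1187 and 1542 CPM in PC, against 682 and 441 CPM in NC (1.28), and Rpl7 had 426 and 572 CPM in PC, against 262 and 160 CPM in NC (1.25). Rpl32 had 1168 and 1564 CPM in PC, against 798 and 254 CPM in NC (1.38, and 0.78 without NC 2). Rps14, Rpl5 and Rpl7 were the 3 members that edgeR called when NC 2, ExDSS 1 and Ex 2 were left out together, with log2 fold changes of 1.58, 1.01 and 0.94. They are 3.75% of the members tested, against 25.7% of all genes (3910).

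**Figure D3:**
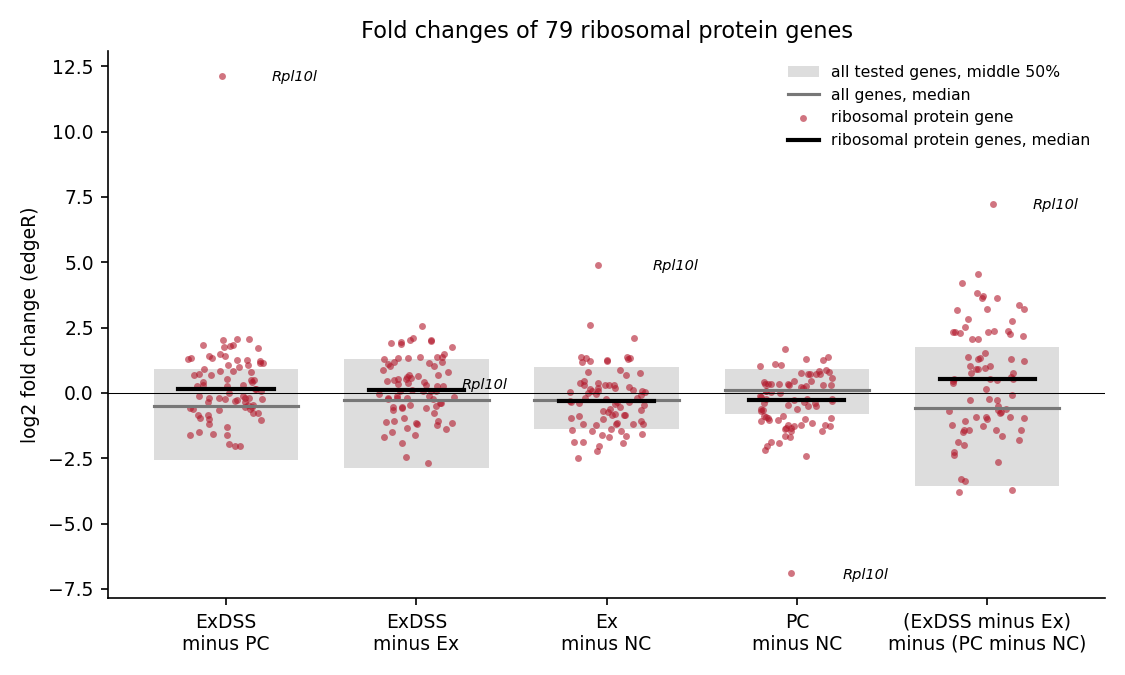
Log2 fold change (y axis, edgeR) of the 79 tested ribosomal protein genes (points) in 5 comparisons (x axis), with their median (black line), beside the median (grey line) and interquartile range (grey band) of all 14567 genes; sideways position within a comparison has no meaning. Members spread on both sides of 0 in every comparison, and Rpl10l is the farthest point in 4 of them. Where PC enters, its value depends on the fit's prior count, since both PC libraries have 0 counts. In Ex minus NC no library is at 0 counts, and its value was -1.45 without Ex 2.

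Whether the difference between DSS and no DSS depended on exosomes was tested as the interaction, (ExDSS minus Ex) minus (PC minus NC). edgeR called 0 of 79 members, against 42 of all genes (0.288%; 0.261% higher and 0.0275% lower). At an unadjusted p under 0.05 it listed 1 member (Rpl10l, higher) and 2741 genes (18.8%, with 5.86% higher and 13.0% lower). DESeq2 and limma-voom called 0 members, against 11.1% and 2.24% of all genes. The difference was above 0 in 45 of 79 members, against 43.2% of all genes. The members' median was 0.52 on the log2 scale and that of all genes -0.58. It remained positive under each scaling tried (0.22 with total counts alone), was 0.01 without Ex 2 and was -0.34 without NC 2, ExDSS 1 and Ex 2. Rps20 (4.54, SE 2.36, edgeR adjusted p = 0.30), Rps27 (4.22, SE 2.34, 0.33 by the same test) and Rpl26 (3.83, SE 2.32, 0.38) were the highest after Rpl10l. Rpl10l has no counts in either PC library, and its fitted difference ran from 3.07 without NC 2 to 13.8 without Ex 2. Rps27 was at 10.6 without Ex 1 and 2.34 without NC 2, beside 1.24 for Rps27rt. Rpl30 (-3.80, SE 1.94, edgeR adjusted p = 0.29), Rpl5 (-3.72), Rps14 (-3.36) and Rpl32 (-3.30) were the lowest. These 4 comparisons and their interaction use the same 8 libraries, so their rankings of genes are not independent of each other.

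The P-stalk is the lateral protuberance that recruits elongation factors to the ribosome. Rplp0, its base, had 712 and 679 CPM in ExDSS, 986 and 19.3 CPM in Ex, 718 and 890 CPM in PC, and 791 and 994 CPM in NC. Rplp1 had 4661 and 6369 CPM in ExDSS, 6593 and 529 CPM in Ex, 4511 and 5981 CPM in PC, and 5334 and 7781 CPM in NC. Apart from Ex 2, these are among the steadiest members. Rplp2 had 550 and 555 CPM in ExDSS, 770 and 1757 CPM in Ex, 581 and 673 CPM in PC, and 447 and 631 CPM in NC, so in Ex 2 it was the highest while the other stalk genes were the lowest. The log2 fold changes of the stalk genes between ExDSS and PC were -0.21 for Rplp0, 0.07 for Rplp1 and -0.18 for Rplp2, with SEs between 1.34 and 1.60 and edgeR adjusted p of 0.98, 0.99 and 0.98.

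Rpsa, a small-subunit protein also known as the laminin receptor precursor, showed the wide pattern. It had 1492 and 991 CPM in ExDSS, 642 and 7.43 CPM in Ex, 399 and 491 CPM in PC, and 410 and 1692 CPM in NC. Its levels in both ExDSS libraries and NC 2 exceeded those of the other 5 libraries (log2 fold change of ExDSS minus PC 1.48, SE 1.60, edgeR adjusted p = 0.75). Rpl3, at the peptidyl transferase centre, ran close to it, with 1157 and 760 CPM in ExDSS, 667 and 10.4 CPM in Ex, 375 and 495 CPM in PC, and 432 and 1657 CPM in NC.

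**Figure D4:**
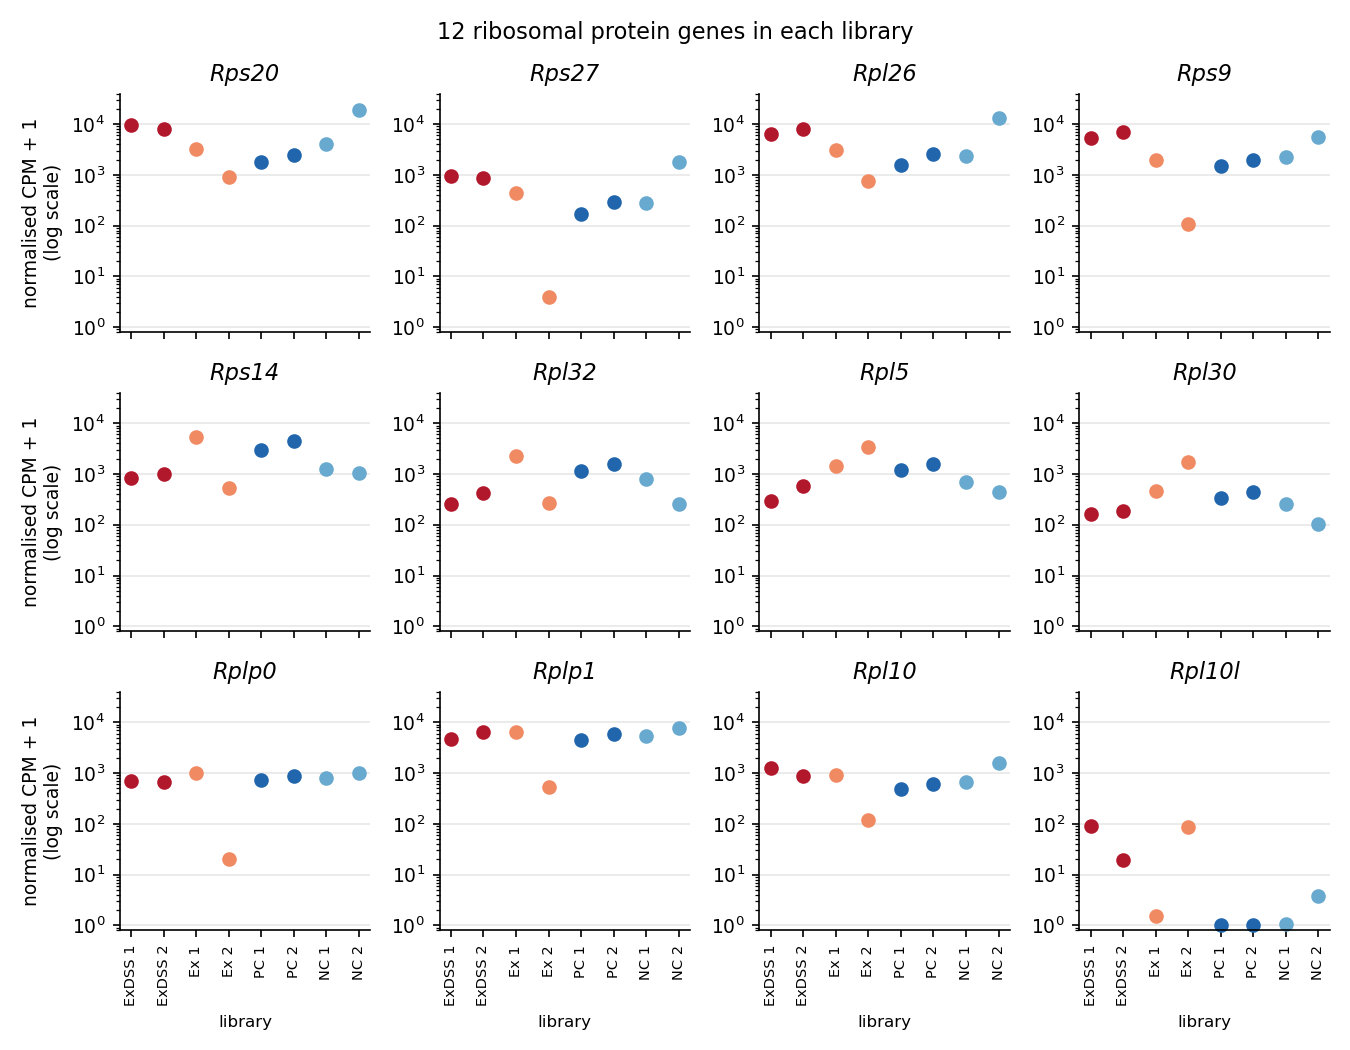
Normalised level (CPM + 1, log scale on the y axis) of 12 ribosomal protein genes in the 8 libraries (x axis), 1 point a library, coloured by labelled group. The top row shows genes high in both ExDSS libraries and NC 2, the middle row genes that are lower there than in Ex 1 and the PC libraries, and the bottom row Rplp0, Rplp1, Rpl10 and its retrogene Rpl10l.

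Rpl10l is an autosomal retrogene copy of the X-linked Rpl10 and is known for its role in spermatogenesis, where it stands in for the silenced parent. The gene lies at chr12:66283379-66284401 on the minus strand, and Rpl10 at chrX:74270816-74273135 on the plus strand (GRCm38 positions, as in the table). Raw counts on Rpl10l were 669 and 220 in ExDSS, 5 and 59 in Ex, 0 and 0 in PC, and 1 and 30 in NC. Both ExDSS libraries thus held more of it than either PC library. The difference was at least 243-fold by the group mean, set against a floor of 3 counts per library, and at least 404-fold and 81.2-fold in ExDSS 1 and ExDSS 2 (edgeR unadjusted p = 0.0008147, adjusted p = 0.23 over all genes). Against Ex the groups overlapped (0.34, SE 1.84, edgeR adjusted p = 0.95). The difference between ExDSS and PC passed at an adjusted p under 0.05 with DESeq2, with limma-voom, without the low-count filter and with the replicate number as a block.

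Rpl10 itself was far more abundant, at 9392 and 10482 counts in ExDSS, 9081 and 81 in Ex, 6624 and 7839 in PC, and 10046 and 16477 in NC. Rpl10l made up 6.65% and 2.06% of the counts on both genes in ExDSS, 0.0550% and 42.1% in Ex, 0% in both PC libraries (upper 95% limits 0.0557% and 0.0470%), and 0.00995% and 0.182% in NC. The share was highest in Ex 2, where Rpl10 had 120 CPM, against 928 CPM in Ex 1, and Rpl10l had 87.7 CPM, against 0.511 CPM in Ex 1. Rpl10 differed between ExDSS and PC by a log2 fold change of 0.98 (SE 1.43, edgeR adjusted p = 0.84), with 1287 and 878 CPM in ExDSS, against 482 and 615 CPM in PC.

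Reads can be told apart between the pair only where the genes differ. The longest open reading frames of the annotated transcripts (GENCODE, GRCm38) were 645 bases in both genes and identical at 547 positions (84.8%), with no identical run longer than 23 bases. The sequences after the stop codon are 68 bases in Rpl10 and 334 bases in Rpl10l. Where the reads of either gene fell, before or after the stop codon, was not examined. The last 60 coding bases are shown with the 7 differing positions in capitals.
Rpl10: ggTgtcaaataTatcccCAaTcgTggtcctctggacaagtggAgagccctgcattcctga
Rpl10l: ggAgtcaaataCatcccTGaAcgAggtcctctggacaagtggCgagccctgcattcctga
The alignment settings and the treatment of multiply mapped reads are not given in the sources used here, and other copies of Rpl10 in the genome were not examined.

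The other paralogs behaved differently from one another. Rps27l, a close copy of Rps27 known as a p53 target in human cells, varied 1.72-fold over the 7 libraries without Ex 2, where Rps27 varied 10.8-fold. It had 289 and 218 CPM in ExDSS, 361 and 751 CPM in Ex, 282 and 314 CPM in PC, and 276 and 210 CPM in NC. Its share of the counts on both genes was accordingly 23.6% and 19.9% in ExDSS, 99.6% in Ex 2 (505 counts beside 2 on Rps27), 63.0% and 52.4% in PC, and 49.4% and 10.5% in NC. In Ex 1 it had 3538 counts beside 4327 on Rps27. These shares leave out the reads on Rps27rt. Between ExDSS and PC its log2 fold change was -0.24 (SE 1.27, edgeR adjusted p = 0.97), against 2.01 for Rps27.

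Rpl39l, a copy of Rpl39 known from male germ cells, had 207 counts (308 CPM) in Ex 2 and at most 10 counts in any other library, with 0 in Ex 1. Its parent Rpl39 had 3 counts in Ex 2 and between 1780 and 11032 in the others. Rpl39l did not pass the low-count filter. Without that filter edgeR called it higher in Ex than in NC and lower in ExDSS than in Ex, both resting on Ex 2. Rps4l, a copy of Rps4x, is annotated as misc_RNA and not as protein-coding. It lies inside Tmtc1 on the opposite strand (941 shared bases). Its counts were 0 and 163 in ExDSS, 188 and 0 in Ex, 105 and 145 in PC, and 87 and 60 in NC. Its 2 zeros thus fell in different groups. Rps4x had 409 and 424 CPM in ExDSS, 980 and 334 CPM in Ex, 608 and 795 CPM in PC, and 466 and 668 CPM in NC. Rpl3l, the form of Rpl3 known from striated muscle, had 0 counts in 6 libraries, 3 in PC 1 and 13 in NC 1. Its share of the counts on Rpl3 and Rpl3l reached 0.199% in NC 1, with an upper 95% limit of 0.341%.

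The balance among members was also set against the spread inside one group, after the values had been seen. The difference between NC 2 and NC 1, 2 libraries under 1 label, was compared with that between ExDSS and PC, which uses none of the NC libraries. Over the 79 members the log2 differences correlated at r = 0.851, and at 0.910 over 78 members without Rpl10l. Over 10319 other genes r was 0.471. The sign was the same in 68 members (86.1%), against 67.3% of the other genes. The other genes were not matched to the members in level, and the part of level in this gap was not tested. Genes of one library share its scaling and depth and are not independent points, so these values carry no p. Rps20 differed by 2.27 between NC 2 and NC 1 and by 2.06 between ExDSS and PC, on the log2(CPM + 1) scale. Rps27 differed by 2.65 and 2.05, and Rpl27 by -1.55 and -2.16. Rps14 was among the exceptions, with -0.24 within NC and -2.01 between ExDSS and PC. Others were Rpl6, with 0.19 and -1.51, and Rps4l, with -0.01 and -1.43. The spread over members was 1.16 within the NC group and 1.24 between ExDSS and PC (SD). Without Rpl10l it was 1.16 and 1.1, so the order of the 2 turned on that gene. The NC pair was wider than the PC and ExDSS pairs and narrower than the Ex pair. The SD of the log2 ratio was 0.148 within PC, 0.870 within ExDSS and 2.74 within Ex. NC 2 and ExDSS 1, which enter one axis each, are the libraries with pancreatic acinar genes, whose part in the likeness was not tested.

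**Figure D5:**
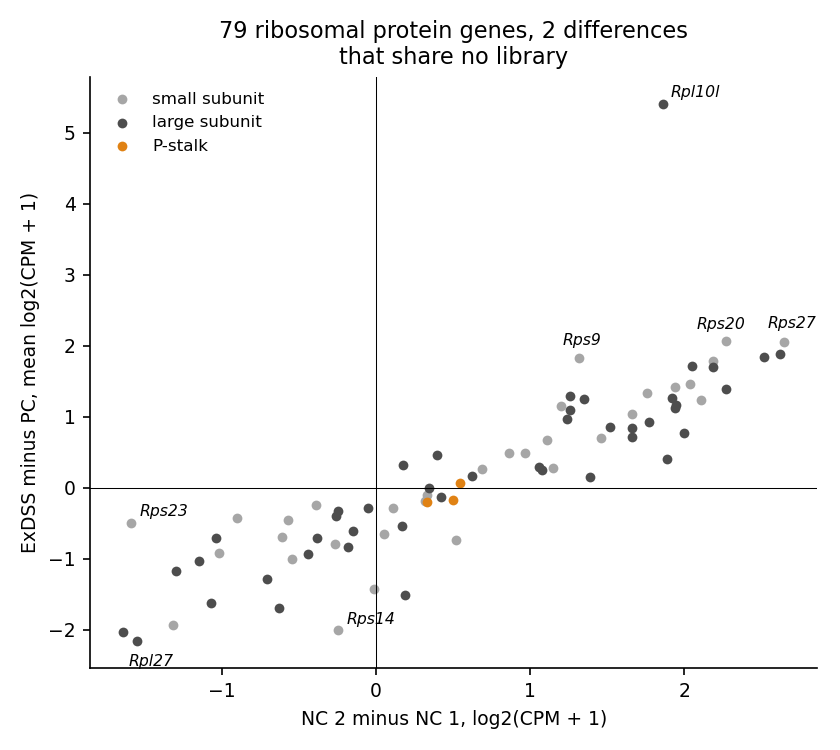
Difference between NC 2 and NC 1 (x axis) and between the ExDSS and PC means (y axis), both on the log2(CPM + 1) scale, for the 79 tested ribosomal protein genes (points, shaded by subunit); no library enters both axes. Most genes, 68 of 79, have the same sign on both, and Rps14 and Rpl10l are among the genes that depart from the rest.

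Other genes of translation were counted for comparison, from lists chosen with earlier results known. Of 12 ribosomal protein genes that the naming rule misses, 9 were in the table. Fau, whose product is a ubiquitin-like protein fused to a small-subunit protein, had 2699 and 1479 CPM in ExDSS, 799 and 1815 CPM in Ex, 465 and 588 CPM in PC, and 569 and 3067 CPM in NC. Rpl22l1, a paralog of Rpl22, ran the other way, with 55.6 and 204 CPM in ExDSS, 708 and 454 CPM in Ex, 490 and 592 CPM in PC, and 222 and 56.2 CPM in NC. Its log2 difference in the interaction was -4.12 (SE 1.95, edgeR adjusted p = 0.26). edgeR called 0 genes in any of the 5 comparisons among these 9, among 18 other genes known for oligopyrimidine mRNAs (elongation and initiation factors, and also Vim, Npm1, Hnrnpa1, Nap1l1 and Tpt1), 21 initiation factors, 30 ribosome biogenesis genes, 77 mitochondrial ribosomal protein genes and 18 translation regulators.

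Between ExDSS and PC, the median log2 fold changes of these lists were -0.20 for the ribosomal proteins outside the rule, -0.26 for the other genes with oligopyrimidine mRNAs, -0.36 for the initiation factors and -0.79 for the biogenesis genes. They were -0.30 for the mitochondrial ribosomal proteins and -1.23 for the regulators, beside 0.16 for the 79 members and -0.51 for all genes. At an unadjusted p under 0.05, 4 of 30 biogenesis genes, 6 of 77 mitochondrial ribosomal protein genes and 6 of 18 regulators were lower in ExDSS, against 16.1% of all genes. Mitochondrial ribosomal protein genes held 0.0637% of the counts of Ex 2, against between 0.328% and 0.577% elsewhere. The cytosolic members had their lowest share in the same library. Not all lists were low in Ex 2. The other genes with oligopyrimidine mRNAs held 1.7% there, against 0.671% to 1.2% elsewhere. The initiation factors held 0.854%, against 0.288% to 0.668% elsewhere. Ribosomal proteins outside the rule (0.248%) and regulators (0.0384%) were also at their lowest in Ex 2. Biogenesis genes, at 0.137%, were not, with 0.109% in ExDSS 1 and 0.13% in NC 2.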

How the data were processed

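Values are the authors' deposited read counts, whole numbers, with a line for each gene and a column for each library. Per the labels' protocols, Trizol was used for RNA and the QuantSeq 3' mRNA kit for libraries, whose reads start near transcript 3' ends. Per the submitters' processing notes, the authors used Bowtie2, bedtools, edgeR and the build mm9; versions, strand use and multiple mapping are not given in the sources used here. All 81 members overlapped the GRCm38 gene of their name, and coordinates are those of the table.

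The members and lists were chosen with earlier results of these data known. Counts were fitted with edgeR 4.0.16 (limma 3.58.1, R 4.3.3): TMM scaling, filterByExpr (minimum count 10, total 15), a robust quasi-likelihood fit with 1 coefficient per group over all 8 libraries (4 residual degrees of freedom), and Benjamini-Hochberg adjustment over 14567 genes. The scripts were tested on simulated counts. SE is the absolute log2 fold change over the square root of F. Normalised CPM divides counts by the library total times its TMM factor. Intervals are exact Clopper-Pearson, and they and the floor of 3 counts cover counting error only. Named genes were the 4 members with the largest fold change in each direction per comparison among those with a mean of at least 5 CPM, the stalk genes, Rpsa, 5 paralog pairs, members failing the filter, and members missing from 1 library; any other gene named was chosen after its values were seen. A gene chosen by this rule is left unnamed in the text and in the heat map, while the counts and fits include it. Alternatives covered RLE, total counts, TMM without the 50 most abundant genes, no filter, DESeq2 1.42.0, limma-voom, a replicate block and leaving out libraries.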

Additional observations from a re-analysis of the deposited data

How the results depend on the processing

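The count of members called changed as follows. Without the low-count filter it was 1 in ExDSS minus PC (Rpl10l), 1 in ExDSS minus Ex and 1 in Ex minus NC (Rpl39l in both). DESeq2 called 1 in ExDSS minus PC and 1 in ExDSS minus Ex, limma-voom 1 in ExDSS minus PC. Leaving out 1 library at a time gave 0 to 28 in Ex minus NC, 0 to 30 in ExDSS minus Ex and 0 to 26 in the interaction, in each case highest without Ex 1, and 0 throughout in ExDSS minus PC and PC minus NC. Without NC 2, ExDSS 1 and Ex 2 together, chosen after seeing the data, it was 37 in ExDSS minus PC (46.2%, against 70.5% of all genes), 26 in ExDSS minus Ex (32.5%, against 64.8%), 15 in Ex minus NC (18.8%, against 23.7%), 3 in PC minus NC (3.75%, against 25.7%) and 26 in the interaction (32.5%, against 63.5%). The members' median log2 fold change ranged, leaving out 1 library at a time, from -2.06 to 0.146 in Ex minus NC, -0.231 to 2.13 in ExDSS minus Ex and 0.0138 to 2.56 in the interaction; without the 3 libraries together it was 0.649 in Ex minus NC and -0.340 in the interaction. Rpl10l in Ex minus NC ranged from -1.45 without Ex 2 to 9.06 without NC 2, Rpl26 and Rps27 there turned to 0.415 and 0.648 without the 3 libraries, and Rpl32 and Rps14 in ExDSS minus Ex ranged from -2.73 and -2.50 without Ex 2 to 0.503 and 0.989 without Ex 1. The causes were not tested.

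Over all genes, in the order ExDSS minus PC, ExDSS minus Ex, Ex minus NC, PC minus NC and interaction, edgeR called 0, 0, 0, 0 and 42, DESeq2 1488, 2005, 337, 83 and 1616, limma-voom 1160, 505, 0, 2 and 327, and edgeR without the filter 132, 223, 55, 45 and 350. In the interaction RLE gave 67 and total counts 6. Same-numbered libraries' deviations correlated between -0.149 and 0.0506 over the pairs of groups. With 2 libraries per group these values cannot exclude a pairing by replicate number. With the replicate number as a block, edgeR called 41, 28, 0, 0 and 161 genes, and 1 member, Rpl10l, in ExDSS minus PC.

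The share of counts on members with other denominators was, without Rn45s, 7.37% and 11.1% in ExDSS, 12.3% and 5.21% in Ex, 8.68% and 11.02% in PC, and 9.12% and 12.04% in NC. Without Rn45s and acinar genes it was 9.29% and 11.1% in ExDSS, 12.3% and 5.21% in Ex, 8.68% and 11.03% in PC, and 9.12% and 13.3% in NC. Without the 50 most abundant other genes it was 12.1% and 13.8% in ExDSS, 14.0% and 5.31% in Ex, 9.71% and 12.6% in PC, and 10.4% and 16.1% in NC. Depth limits Ex 2 most, where the floor of 3 counts stands at 4.46 CPM.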
